A study of Mus musculus with 40 samples.

Results

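The growth hormone axis of the liver was followed through a list of 10 genes of the pathway, looked up by symbol, of the 15958 genes in the deposited table of log2 TPM values (transcript abundance scaled to a fixed total per library). The genes were the receptor gene Ghr, the signal transducers Stat5a and Stat5b, the feedback genes Socs2 and Cish, the repressor gene Bcl6, and the IGF genes Igf1, Igfals, Igfbp1 and Igfbp2. All 10 were in the table and passed the filter on low values. The values came from 18 liver libraries of wild type C57BL/6 male mice that were 8 weeks old at surgery. The sham group (5 libraries) had sham surgery and then vehicle, the SBR vehicle group (8 libraries) had small bowel resection and then vehicle, and the WUSTL0717 group (5 libraries) had small bowel resection and then WUSTL0717, a liver X receptor agonist made to stay in the gut. WUSTL0717 was given daily at 30 mg/kg, vehicle on the same days, from 3 weeks after surgery and for 7 weeks, and tissue was taken at 10 weeks. The labels give the extent of resection as 50 to 60%. The text of the study gives a larger extent, so the extent is uncertain here. No group received WUSTL0717 after sham surgery. Each library was taken as 1 mouse, as the study describes its groups, and the labels name no mouse for a library.

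Growth hormone is released by the pituitary and binds its receptor on hepatocytes. The receptor activates the kinase JAK2, which phosphorylates STAT5, and STAT5 enters the nucleus and raises the transcription of Igf1, Igfals, Socs2 and Cish. IGF1 carries much of the growth-promoting action of growth hormone, and most of it circulates bound to IGFBP3 and the acid-labile subunit that Igfals encodes. SOCS2 and CISH feed back on the receptor, and BCL6 is a repressor that binds the same DNA motif as STAT5. In mice, the pulsed secretion of growth hormone in males and its steadier secretion in females set the sex-biased genes of the liver. Undernutrition is known to bring about growth hormone resistance, in which growth hormone is high and IGF1 is low.

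Promoter windows of 300 bases, from 250 bases before to 50 bases after a start site, were read from RefSeq on GRCm38.p6 for 9 of the 10 genes, in 16 windows. Socs2 was not matched. The windows were searched for TTCNNNGAA, the core motif that STAT5 and BCL6 are known to bind, which reads the same on both strands. It was found in 5 windows, which belong to Cish, Bcl6 and Igfals. Of all 32851 windows of this length, 8.30% hold the motif at least once, 0.457% at least 2 times and 0.0335% at least 3 times. The Cish window and 1 window each of Bcl6 and Igfals are shown because these genes are the members with the motif near a start site, with the motif in capitals. The Igfbp1 window is shown for CAAAACA, a core of the insulin response element through which FOXO1 acts, searched on both strands and found in 6.28% of all windows. A match is a run of letters and was not tested for binding.
Cish, chr9:107296409-107296708, plus strand: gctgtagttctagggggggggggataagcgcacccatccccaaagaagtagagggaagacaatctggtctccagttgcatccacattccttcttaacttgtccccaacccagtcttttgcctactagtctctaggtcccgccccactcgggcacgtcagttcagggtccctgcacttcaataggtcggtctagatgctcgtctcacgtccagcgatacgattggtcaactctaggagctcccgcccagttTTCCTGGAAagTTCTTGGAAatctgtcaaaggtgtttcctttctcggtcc
Bcl6, chr16:23981234-23981533, minus strand: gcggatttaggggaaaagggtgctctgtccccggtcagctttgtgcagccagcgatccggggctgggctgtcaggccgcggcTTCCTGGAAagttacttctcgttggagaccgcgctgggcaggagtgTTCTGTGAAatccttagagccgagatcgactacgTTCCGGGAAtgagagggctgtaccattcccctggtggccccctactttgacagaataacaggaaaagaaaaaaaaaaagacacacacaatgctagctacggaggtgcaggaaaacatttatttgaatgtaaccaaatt
Igfals, chr17:24877981-24878280, plus strand: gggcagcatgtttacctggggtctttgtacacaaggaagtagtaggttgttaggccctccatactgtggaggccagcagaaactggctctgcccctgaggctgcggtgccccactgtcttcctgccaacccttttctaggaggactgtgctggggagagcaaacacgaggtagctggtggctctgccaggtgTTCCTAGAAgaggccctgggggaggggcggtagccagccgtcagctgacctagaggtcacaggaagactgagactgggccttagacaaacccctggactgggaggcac
Igfbp1, chr11:7197537-7197836, plus strand: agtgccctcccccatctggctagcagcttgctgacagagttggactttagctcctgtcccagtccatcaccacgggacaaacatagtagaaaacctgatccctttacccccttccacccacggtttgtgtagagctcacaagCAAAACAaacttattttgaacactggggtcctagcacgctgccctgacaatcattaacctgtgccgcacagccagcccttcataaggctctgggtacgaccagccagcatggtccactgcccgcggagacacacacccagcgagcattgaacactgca
The Cish window holds TTCCTGGAA at its start site and TTCTTGGAA from position 12 after it. The Bcl6 window holds TTCCTGGAA, TTCTGTGAA and TTCCGGGAA, which begin at positions -168, -122 and -88 from its start site. The Igfals motif, TTCCTAGAA, begins at position -58, and CAAAACA of Igfbp1 begins at position -108.

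The 10 genes lie on 7 chromosomes of GRCm38 in the GENCODE M21 annotation. Ghr lies at chr15:3317760-3583492, Stat5b at chr11:100780731-100850724 and Stat5a at chr11:100859351-100885169. Socs2 lies at chr10:95385362-95417180, Cish at chr9:107296026-107302784 and Bcl6 at chr16:23965052-23988852. Igf1 lies at chr10:87858265-87937042, Igfals at chr17:24865997-24882010, Igfbp1 at chr11:7197782-7202546 and Igfbp2 at chr1:72824503-72852474. All are protein-coding. On the opposite strand, exons of Stat5a overlap those of Stat3, those of Cish overlap Gm17040 and Gm17041, and those of Bcl6 overlap Gm37419. The library protocol describes no strand marking, so reads from these overlaps cannot be told apart. Stat5a and Stat5b are close copies of each other, and reads that fit both were not counted.

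Correlations between liver libraries ranged from 0.92 to 0.98 across genes. The batch-corrected values, turned back from the log scale with an added constant of 1 assumed, summed to between 686820 and 819790 per library. The number of reads behind a value is unknown. SBR vehicle libraries 2 and 3 stood apart, with limma quality weights of 0.107 and 0.289, and values without them are given beside results of the 10 genes whose call or direction they change. Intestine was 1 batch and liver the other in the correction of the table, so levels in liver and intestine cannot be compared. After that correction the mean liver values of the 10 genes lay between 0.27 and 0.90 above their intestinal means on the log2 scale, for Igfbp1 as for Stat5b. Differences were tested with limma on 15901 genes and called at a Benjamini-Hochberg adjusted p under 0.05. Adjusted p-values below are from that fit.

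After SBR, transcripts of the receptor and of the acid-labile subunit fell, and those of Socs2, Cish and Igfbp1 rose. The 10 genes and the lists below were chosen with earlier results of these data known, so shares beside their counts are a description. Of the 10 genes, 8 were called between SBR vehicle and sham, against 41.9% of all genes. The 5 that rose were Stat5a, Socs2, Cish, Igfbp1 and Igfbp2, against 37.4% of all genes called higher. The 3 that fell were Ghr, Igfals and Bcl6, against 4.47% of all genes called lower. Ghr, Igfals and Socs2 had no overlap between SBR vehicle and sham libraries, as 17.2% of all genes did. Without SBR vehicle libraries 2 and 3, 9 of the 10 were called, which were these 8 and Stat5b, against 63.5% of all genes (10100 instead of 6663). The count fell to 5 without sham library 3, and Cish was called in 5 of 13 fits that left out 1 library. The median difference of all genes was 0.25 on the log2 scale in this comparison, so a gene at that value moved with the bulk of the table. With each library centred on its median, the median of all genes came to -0.06 and the share of calls that were higher came to 41.5% instead of 89.3%. With quantile normalization that share was 45.6%, and relative to the mean of 10 hepatocyte marker genes it was 98.8%.

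With WUSTL0717 after SBR, 2 of the 10 genes differed from SBR vehicle, against 4.10% of all genes. Ghr was higher, against 1.44% of all genes called higher, and Socs2 was lower, against 2.66% called lower. None of the 10 was without overlap between these groups, and 1.54% of all genes were. Without SBR vehicle libraries 2 and 3 both calls held, at 0.43 for Ghr (adjusted p = 0.0183) and -0.92 for Socs2 (adjusted p = 0.00601). Neither was called without WUSTL0717 library 2, with only these 2 groups in the fit or with the unmoderated comparison, and 1 was called without WUSTL0717 library 1 or 3. Between WUSTL0717 and sham, 5 of the 10 were called against 28.8% of all genes, and 3 without sham library 1, 3 or 5 or without WUSTL0717 library 4 or 5. Stat5a, Igfbp1 and Igfbp2 were higher, against 27.9% of all genes called higher, and Ghr and Igfals were lower, against 0.906% called lower. Igfals, Stat5a and Igfbp2 had no overlap between WUSTL0717 and sham, and 28.1% of all genes had none. The SBR vehicle libraries enter both of the first comparisons and the sham libraries enter both comparisons with sham, so the 3 sets of values are not independent.

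**Figure D1:**
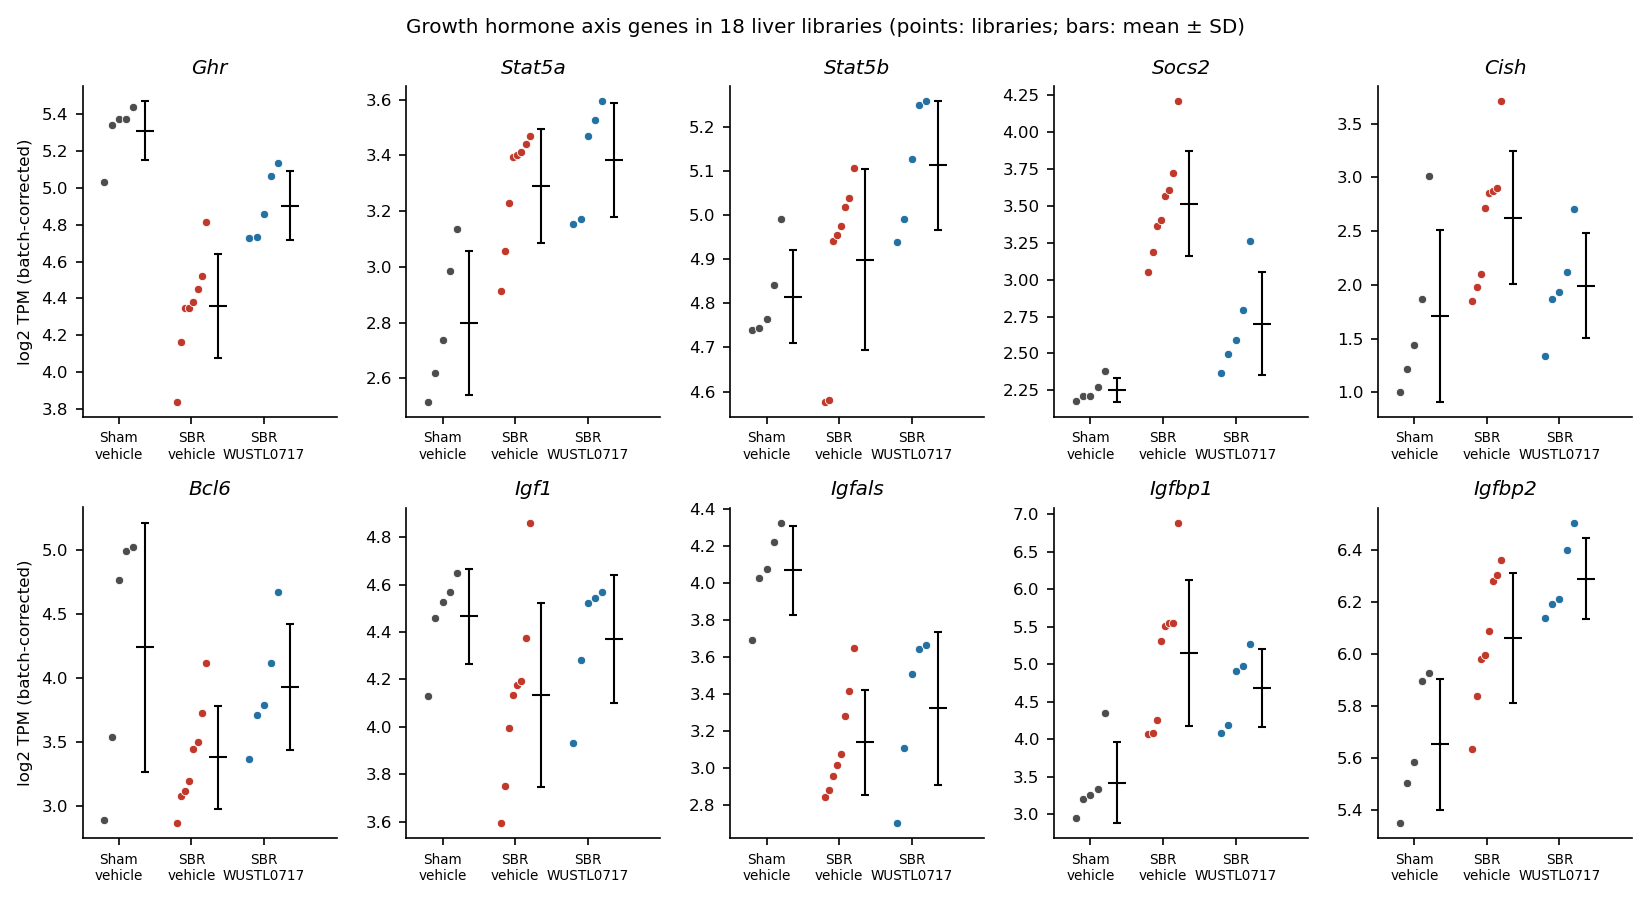
Log2 TPM (vertical axes, each with its own range) of the 10 genes in 18 liver libraries of the 3 groups, with 1 point per library, ordered by value within its group, and bars for the mean and SD. Ghr is at 5.03 to 5.44 in sham, 3.84 to 4.82 in SBR vehicle and 4.73 to 5.13 in WUSTL0717 libraries, and Socs2 follows the opposite order.

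Ghr encodes the growth hormone receptor, through which the hepatocyte senses the hormone. Its log2 TPM was 5.03, 5.34, 5.38, 5.38 and 5.44 in the sham libraries, ran from 3.84 over a median of 4.36 to 4.82 in SBR vehicle, and was 4.73, 4.74, 4.86, 5.07 and 5.13 with WUSTL0717. Every SBR vehicle library lay below every sham library, and the WUSTL0717 libraries lay between, with overlap at both ends. The mean was 5.31 ± 0.16 (SD, n = 5) in sham, 4.36 ± 0.28 (SD, n = 8) in SBR vehicle and 4.90 ± 0.19 (SD, n = 5) with WUSTL0717. Ghr fell by 0.95 on the log2 scale after SBR (SE 0.13, adjusted p = 9.68e-06), a level 0.516 times that of sham on the deposited scale, whose added constant is not stated. It was 0.55 higher with WUSTL0717 than with vehicle after SBR (SE 0.13, adjusted p = 0.0227) and 0.41 lower than in sham (SE 0.14, adjusted p = 0.0399). The fall after SBR was called in all 13 fits that left out 1 library, and relative to the mean of the hepatocyte markers it was -0.41 (adjusted p = 0.000128). The rise with WUSTL0717 was called in 10 of 13, and not without WUSTL0717 library 1 (adjusted p = 0.0615), 2 (adjusted p = 0.0805) or 3 (adjusted p = 0.0942). With only SBR vehicle and WUSTL0717 in the fit, its adjusted p was 0.0685, and relative to the hepatocyte marker mean the difference was 0.15 and was not called (adjusted p = 0.115). The difference from sham was called in 3 of 10 such fits, and its adjusted p was 0.107 without WUSTL0717 library 4. It was -0.71 with libraries centred on their median (adjusted p = 0.000144) and -0.26 relative to the hepatocyte marker mean (adjusted p = 0.0217).

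Stat5a and Stat5b encode the transcription factors that carry the growth hormone signal to the nucleus, of which STAT5B is the main form in liver. The log2 TPM of Stat5a was 2.52, 2.62, 2.74, 2.99 and 3.14 in sham, ran from 2.92 over a median of 3.40 to 3.47 in SBR vehicle, and was 3.16, 3.17, 3.47, 3.53 and 3.60 with WUSTL0717. All WUSTL0717 libraries lay above all sham libraries, and SBR vehicle overlapped both. Stat5a was 0.49 higher in SBR vehicle than in sham (SE 0.13, adjusted p = 0.00436) and 0.58 higher with WUSTL0717 than in sham (SE 0.14, adjusted p = 0.00608). WUSTL0717 and SBR vehicle differed by 0.09 (95% interval -0.17 to 0.36, adjusted p = 0.798), and by -0.00701 without SBR vehicle libraries 2 and 3. Set against the median of all genes, the difference from sham was 0.25 in SBR vehicle, and with quantile normalization it was 0.17 and was not called (adjusted p = 0.0717).

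The log2 TPM of Stat5b was 4.74, 4.74, 4.76, 4.84 and 4.99 in sham, ran from 4.58 over a median of 4.96 to 5.11 in SBR vehicle, and was 4.94, 4.99, 5.13, 5.25 and 5.26 with WUSTL0717. The lowest values of SBR vehicle, 4.58 in both cases, were those of libraries 2 and 3, and the groups overlapped throughout. SBR vehicle and sham differed by 0.08 (95% interval -0.13 to 0.29, adjusted p = 0.5256), and WUSTL0717 and SBR vehicle by 0.21 (95% interval 0.00368 to 0.42, adjusted p = 0.280). The direction after SBR depended on the scaling. The difference was 0.19 without SBR vehicle libraries 2 and 3 (adjusted p = 0.0249), -0.22 with libraries centred on their median (adjusted p = 0.00632), -0.16 with quantile normalization (adjusted p = 0.0463) and 0.62 relative to the hepatocyte marker mean (adjusted p = 8.28e-05). In the last of these settings the median of all genes was 0.78, above the value of Stat5b. WUSTL0717 and sham differed by 0.30 (95% interval 0.06 to 0.53, adjusted p = 0.0516). That difference was called under 7 of 12 alternatives other than leaving out 1 library, among them the fit without SBR vehicle libraries 2 and 3 (adjusted p = 0.00420), and it was -0.00361 with libraries centred on their median. Between WUSTL0717 and SBR vehicle, median centring gave 0.22 and a call (adjusted p = 0.0184), and relative to the hepatocyte marker mean the difference was -0.18 (adjusted p = 0.194).

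Socs2 encodes a suppressor of cytokine signalling that marks the growth hormone receptor for degradation, and it is itself induced by STAT5. In sham, the log2 TPM of Socs2 was 2.18, 2.21, 2.21, 2.27 and 2.38, and it ran from 3.05 over a median of 3.49 to 4.21 in SBR vehicle, and was 2.37, 2.49, 2.59, 2.80 and 3.26 with WUSTL0717. The sham libraries lay close together and below every SBR vehicle library. With WUSTL0717, 4 of 5 libraries lay below every SBR vehicle library and 1 lay within their range. Socs2 rose by 1.26 on the log2 scale after SBR (SE 0.17, adjusted p = 7.67e-06), a level 2.40 times that of sham. It fell by 0.81 with WUSTL0717 against SBR vehicle (SE 0.17, adjusted p = 0.0135), a level 0.569 times as high. WUSTL0717 and sham differed by 0.45 (95% interval 0.06 to 0.84, adjusted p = 0.0723), which was called without SBR vehicle libraries 2 and 3 (adjusted p = 0.0426), with only these 2 groups in the fit (adjusted p = 0.0370) and relative to the hepatocyte marker mean (adjusted p = 0.0187). It was 0.15 with libraries centred on their median (adjusted p = 0.550), 0.16 with quantile normalization (adjusted p = 0.527) and 0.28 with library weights (adjusted p = 0.0857), and was not called in these. Relative to the hepatocyte marker mean, 10035 of all genes were called between WUSTL0717 and sham, with a median of 0.42. The rise was called in all 13 fits that left out 1 library and the fall in 12 of 13, with an adjusted p of 0.0533 without WUSTL0717 library 2. With only SBR vehicle and WUSTL0717 in the fit, the adjusted p of the fall was 0.0540. Without SBR vehicle libraries 2 and 3, the rise was 1.37 and was called.

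Cish encodes another STAT5-induced inhibitor of cytokine receptors. Its sham libraries had log2 TPM values of 1.00, 1.22, 1.44, 1.87 and 3.01, while the level ran from 1.85 over a median of 2.79 to 3.71 in SBR vehicle, and was 1.34, 1.87, 1.94, 2.12 and 2.70 with WUSTL0717. A single sham library, number 1, was above the SBR vehicle median, and the 3 groups overlapped. Cish rose by 0.91 after SBR (SE 0.33, adjusted p = 0.0336). That call held in 5 of 13 fits that left out 1 library. Without sham library 1 the difference was 1.24 (adjusted p = 0.00350), and without sham library 3 it was 0.74 (adjusted p = 0.1005). It was also lost without sham library 2, 4 or 5 and without SBR vehicle library 1, 4, 6 or 7, with adjusted p-values from 0.0531 to 0.0839. With libraries centred on their median, the difference was 0.61 and was not called (adjusted p = 0.132), and with quantile normalization it was 0.58 (adjusted p = 0.145). Cish was 0.63 lower with WUSTL0717 than in SBR vehicle, which was not called (95% interval -1.33 to 0.07, adjusted p = 0.351). Relative to the hepatocyte marker mean it was -1.02 and was called (adjusted p = 0.00887). In that setting 10064 of all genes were called, 0.556% of them higher, and the median of all genes was -0.37.

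Bcl6 encodes a zinc finger repressor that is higher in male than in female liver and that STAT5 is known to repress. Values in sham were 2.89, 3.54, 4.77, 4.99 and 5.03 on the log2 TPM scale, and the level ran from 2.87 over a median of 3.32 to 4.12 in SBR vehicle, and was 3.37, 3.71, 3.79, 4.12 and 4.67 with WUSTL0717. The sham libraries fell apart into 3 at 4.77 or more and 2 at 3.54 or less, and the lower 2 lay within the range of SBR vehicle. Bcl6 fell by 0.86 after SBR (SE 0.32, adjusted p = 0.0394), and the call held in 5 of 13 fits that left out 1 library. The fall was 1.20 in size without sham library 1 and 0.67 without sham library 5 (adjusted p = 0.128). It was also not called without sham library 3 or 4 or without SBR vehicle library 1, 4, 6, 7 or 8, with adjusted p-values from 0.0512 to 0.115. Relative to the hepatocyte marker mean it was 0.32 lower and was not called (adjusted p = 0.392). WUSTL0717 and SBR vehicle differed by 0.55 (95% interval -0.13 to 1.23, adjusted p = 0.418).

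**Figure D2:**
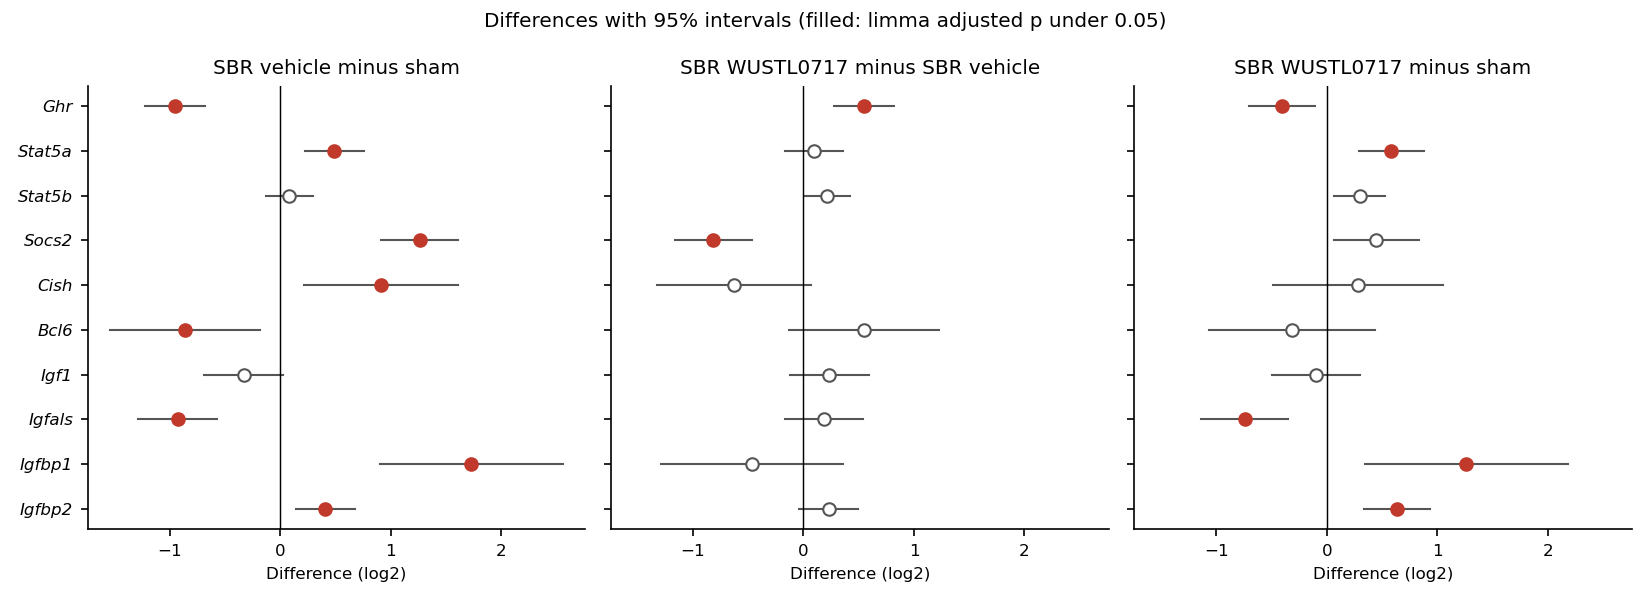
Differences between group means on the log2 scale (horizontal axes) for the 10 genes in 3 comparisons, with bars for 95% intervals of the limma fit and filled points for adjusted p under 0.05. In SBR vehicle minus sham, 8 points are filled, from -0.95 for Ghr to 1.73 for Igfbp1, and in WUSTL0717 minus SBR vehicle 2 are filled, Ghr at 0.55 and Socs2 at -0.81.

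Igf1 encodes the hormone that the liver secretes in response to growth hormone. Its log2 TPM was 4.13, 4.46, 4.52, 4.57 and 4.65 in sham, ran from 3.59 over a median of 4.16 to 4.86 in SBR vehicle, and was 3.93, 4.28, 4.52, 4.54 and 4.57 with WUSTL0717. SBR vehicle held both the lowest and the highest library, and 6 of its 8 libraries were below 4.2. Igf1 was 0.33 lower in SBR vehicle than in sham, which was not called (95% interval -0.69 to 0.02, adjusted p = 0.124). Without SBR vehicle library 4, the highest, the difference was -0.44 and was called (adjusted p = 0.0227), and with library weights it was -0.32 and was called (adjusted p = 0.0304). Without SBR vehicle libraries 2 and 3, the lowest in the group, it was -0.18 (adjusted p = 0.315). The difference was -0.64 with libraries centred on their median (adjusted p = 0.000234) and -0.60 with quantile normalization (adjusted p = 0.000438), and it turned to 0.21 relative to the hepatocyte marker mean (adjusted p = 0.113). WUSTL0717 and SBR vehicle differed by 0.23 (95% interval -0.12 to 0.59, adjusted p = 0.548), and WUSTL0717 and sham by -0.10 (95% interval -0.49 to 0.30, adjusted p = 0.698). The difference from sham with WUSTL0717 was -0.40 with libraries centred on their median (adjusted p = 0.0412) and -0.39 with quantile normalization (adjusted p = 0.0473), both called, and -0.29 with library weights (adjusted p = 0.0745).

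Igfals encodes the acid-labile subunit, which hepatocytes secrete and which keeps IGF1 in the circulation. Sham libraries had Igfals levels of 3.69, 4.03, 4.07, 4.22 and 4.33 in log2 TPM, and the level ran from 2.85 over a median of 3.04 to 3.65 in SBR vehicle, and was 2.70, 3.11, 3.51, 3.64 and 3.66 with WUSTL0717. Every sham library lay above every library of both SBR groups. Igfals fell by 0.93 after SBR (SE 0.17, adjusted p = 0.000247), a level 0.525 times that of sham, and the call held in all 13 fits that left out 1 library. Relative to the hepatocyte marker mean it was -0.39 (adjusted p = 0.0237). With WUSTL0717 it was 0.74 lower than in sham (SE 0.19, adjusted p = 0.00826), a call that held in all 10 such fits. WUSTL0717 and SBR vehicle differed by 0.18 (95% interval -0.17 to 0.54, adjusted p = 0.667). Against SBR vehicle, a difference with WUSTL0717 was called for Ghr and not for Igfals. Whether the effects on Ghr and Igfals differed was not tested.

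Igfbp1 encodes a binding protein of the fasted liver that insulin represses and FOXO1 induces. Its log2 TPM was 2.95, 3.20, 3.26, 3.33 and 4.35 in sham, ran from 4.07 over a median of 5.40 to 6.89 in SBR vehicle, and was 4.08, 4.18, 4.91, 4.97 and 5.26 with WUSTL0717. Apart from sham library 4, at 4.35, all sham libraries lay below all libraries of both SBR groups. Igfbp1 rose by 1.73 after SBR (SE 0.40, adjusted p = 0.00177), a level 3.32 times that of sham, and this was the largest difference among the 10 genes in any of the 3 comparisons. The call held in all 13 fits that left out 1 library, and the rise was 2.09 without SBR vehicle libraries 2 and 3, which were the lowest of the group. With WUSTL0717 it was 1.26 higher than in sham (SE 0.44, adjusted p = 0.0385), which held in 3 of 10 such fits and gave an adjusted p of 0.0907 without WUSTL0717 library 4. That call was also lost with libraries centred on their median (0.96, adjusted p = 0.101), with quantile normalization (0.95, adjusted p = 0.105) and with a pseudocount of 5 (1.01, adjusted p = 0.0571). WUSTL0717 and SBR vehicle differed by -0.47 (95% interval -1.29 to 0.36, adjusted p = 0.626), and by -0.86 relative to the hepatocyte marker mean, which was called (adjusted p = 0.0253). Of all genes, 10064 were called in that setting, 0.556% of them higher, with a median of -0.37.

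Igfbp2 encodes the binding protein that the liver makes when food or growth hormone action is low. Its log2 TPM was 5.35, 5.50, 5.59, 5.90 and 5.93 in sham, ran from 5.64 over a median of 6.04 to 6.36 in SBR vehicle, and was 6.14, 6.19, 6.21, 6.40 and 6.51 with WUSTL0717. All WUSTL0717 libraries lay above all sham libraries. Igfbp2 was 0.41 higher in SBR vehicle than in sham (SE 0.13, adjusted p = 0.0154), but the adjusted p was 0.0549 without sham library 3. Set against the median of all genes the difference was 0.16. With libraries centred on their median it was 0.10 (adjusted p = 0.5256) and with quantile normalization 0.19 (adjusted p = 0.232), and neither was called. With WUSTL0717 it was 0.64 higher than in sham (SE 0.14, adjusted p = 0.00380), a call lost with libraries centred on their median (0.34, adjusted p = 0.0962) and with quantile normalization (0.34, adjusted p = 0.0923). WUSTL0717 and SBR vehicle differed by 0.23 (95% interval -0.04 to 0.50, adjusted p = 0.386).

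Over the 8 SBR vehicle libraries, the larger of the groups, 45 pairs of the 10 genes were compared by their levels, each with an exact permutation test (two-sided, 40320 orderings). With Benjamini-Hochberg adjustment, 3 pairs passed at 0.05 by Pearson's r. Socs2 and Cish had r = 0.95 (exact permutation p = 0.000273, adjusted p = 0.0123) and rho = 0.95 (exact permutation p = 0.00114, adjusted p = 0.0513). Ghr and Igf1 had r = 0.92 (exact permutation p = 0.00241, adjusted p = 0.0361) and rho = 0.88 (exact permutation p = 0.00724, adjusted p = 0.0865). Stat5a and Stat5b had r = 0.94 (exact permutation p = 0.00218, adjusted p = 0.0361) and rho = 0.76 (exact permutation p = 0.0368, adjusted p = 0.127). Without the 2 libraries farthest from the median of the first gene, r came to 0.83, 0.72 and 0.61 for these pairs. In the smaller groups r was not tested. For Socs2 and Cish it was -0.10 in sham and 0.47 with WUSTL0717. For Ghr and Igf1 it was 0.84 and 0.54, and for Stat5a and Stat5b 0.73 and 0.84. Among the 3 genes whose windows hold the STAT5 motif no pair passed. Cish and Bcl6 had r = -0.73 (exact permutation p = 0.0355, adjusted p = 0.126) and rho = -0.83 (exact permutation p = 0.0154, adjusted p = 0.0865), and r was -0.90 without the 2 farthest libraries. Igfals and Cish had r = 0.70 (exact permutation p = 0.0537, adjusted p = 0.127) and rho = 0.57 (exact permutation p = 0.151, adjusted p = 0.275), and r was 0.13 without the 2 farthest libraries. Igfals and Bcl6 had r = -0.54 (exact permutation p = 0.175, adjusted p = 0.246) and rho = -0.50 (exact permutation p = 0.216, adjusted p = 0.286), and r was -0.38 without them. The sham library with the highest Cish value was also that with the lowest Bcl6 value. The points share a library, its scaling and its RNA, and SBR vehicle libraries 2 and 3 were the lowest for Ghr, Igf1, Cish, Stat5a, Stat5b and Igfbp1.

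**Figure D3:**
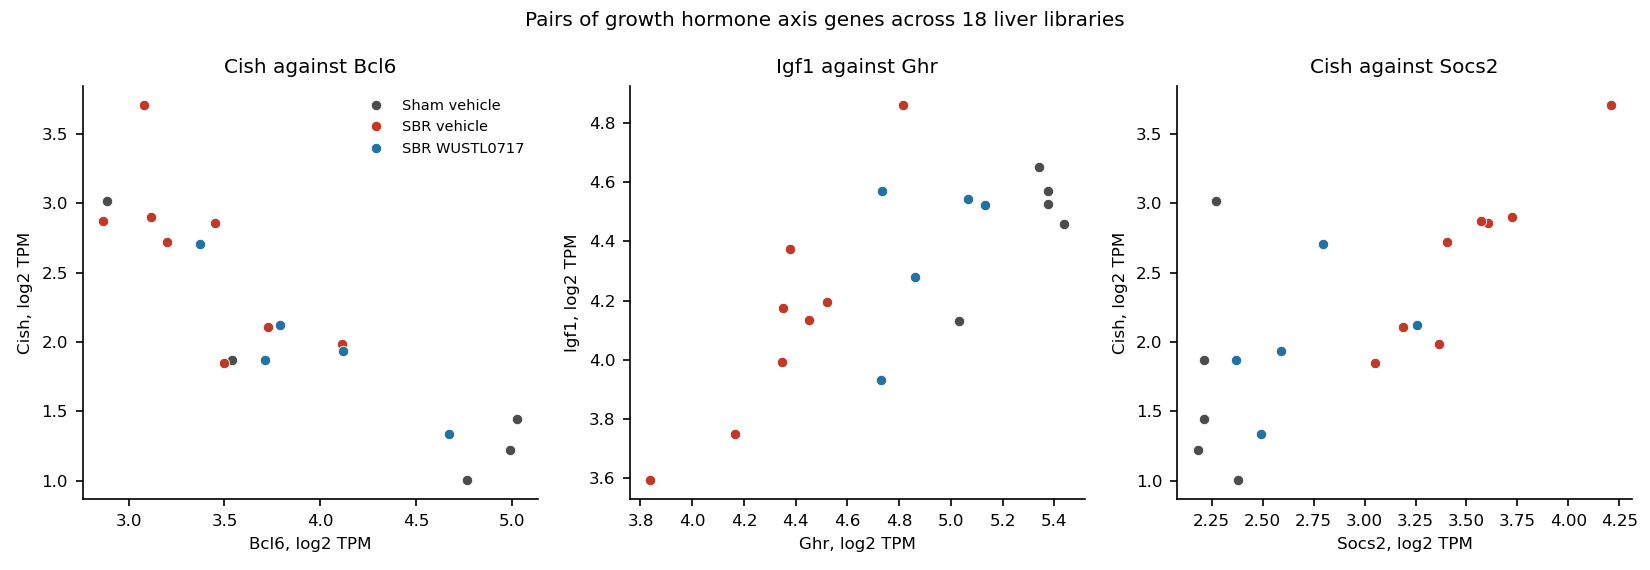
Levels of 3 pairs of genes, in log2 TPM on both axes, with 1 point per liver library coloured by group (18 libraries). Cish was low where Bcl6 was high, with r = -0.73 within SBR vehicle, while Igf1 against Ghr and Cish against Socs2 had r = 0.92 and 0.95 within that group. For Cish against Socs2, r was -0.10 within sham and 0.47 within WUSTL0717.

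As a description with no test, the genes most alike were taken by Pearson's r over the 18 libraries after group means were subtracted, among 15895 genes. For Igf1 they were Daam1 (r = 0.95), Rbm25 (r = 0.92) and Ttll5 (r = 0.90). For Socs2 they were Arl14 (r = 0.89), Chaf1b (r = 0.88) and Chtf18 (r = 0.88). For Cish they were Phlda1 (r = 0.89), Egfros (r = 0.89) and Gm42796 (r = 0.88), and for Igfbp1 they were Vwf (r = 0.89), 4930513N20Rik (r = 0.89) and Trib1 (r = 0.88). For Igfbp2 the highest was Gm23428 (r = 0.83), followed by Mir1191b (r = 0.81) and Klhl3 (r = 0.79). For Bcl6 no gene reached 0.75, and the first were Gm9311 (r = 0.73), Gm15370 (r = 0.71) and Mir1955 (r = 0.71).

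The other genes of growth hormone receptor signalling were higher after SBR or were not called. Of 13 tested, 8 rose, against 37.4% of all genes, and none fell after SBR, with a list median of 0.34 beside 0.25 for all genes. Socs3, a suppressor induced by STAT3, rose by 0.95 (SE 0.21, adjusted p = 0.00121), and Ptpn1, a phosphatase that acts on JAK2, by 0.48 (SE 0.10, adjusted p = 0.00115). Socs1, a further suppressor of JAK kinases, rose by 0.51 (SE 0.14, adjusted p = 0.00642). With WUSTL0717 against SBR vehicle, limma called none of the 13, against 4.10% of all genes. None of the 13 had an unadjusted limma p under 0.05, while 2738 of all 15901 genes had, and the median of the 13 was -0.02.

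Of 13 further genes of the IGF system, 10 were in the table, and 7 of them rose, against 37.4% of all genes, and 1 fell after SBR, against 4.47%, with a list median of 0.58 beside 0.25 for all genes. Igf1r, which encodes the IGF1 receptor and is low in adult hepatocytes, ran from 1.78 to 2.15 in sham, from 2.74 to 3.67 in SBR vehicle and from 2.24 to 3.10 with WUSTL0717. It rose by 1.20 after SBR (SE 0.16, adjusted p = 6.78e-06) and fell by 0.57 with WUSTL0717 against SBR vehicle (SE 0.16, adjusted p = 0.0484). Igfbp7, a binding protein of low affinity for IGF that stellate and endothelial cells make, rose by 1.36 (SE 0.14, adjusted p = 4.07e-07) and fell by 0.55 with WUSTL0717 (SE 0.14, adjusted p = 0.0302). Htra1, a protease that cuts binding proteins, rose by 1.14 (SE 0.15, adjusted p = 1.01e-05). Pappa, the protease that frees IGF from IGFBP4, rose by 0.64 (SE 0.09, adjusted p = 1.41e-05) and fell by 0.38 with WUSTL0717 (SE 0.09, adjusted p = 0.0237). Igfbp4 was the 1 that fell after SBR, by 0.34 (SE 0.08, adjusted p = 0.00303), and Stc2, an inhibitor of PAPP-A, was the last of 4 that fell with WUSTL0717, against 2.66% of all genes, by 0.53 (SE 0.14, adjusted p = 0.0352). Both were named after their values were seen. Of the fits of WUSTL0717 against SBR vehicle that left out 1 library, 13 in all, 4 called Igf1r, 8 Igfbp7, 10 Pappa and 6 Stc2. With only the 2 groups in the fit limma called none of the 4, with adjusted p-values of 0.113 for Igf1r, 0.0911 for Igfbp7, 0.0756 for Pappa and 0.0989 for Stc2, and the unmoderated comparison called none of all genes. The list median with WUSTL0717 was -0.36 beside 0.02 for all genes.

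Of the sex-biased genes that growth hormone secretion sets, most of the male-biased genes in the table fell after SBR and most of the female-biased genes rose. All mice were male. Both lists were chosen with earlier results of these data known, so the shares beside their counts are a description and not a test. Of 20 male-biased genes listed, 17 were in the table, and 16 of them fell after SBR, against 4.47% of all genes called lower, with a median of -1.51 beside 0.25 for all genes. Mup3, a major urinary protein gene, ran from 7.63 to 7.87 in sham, from 3.41 to 4.89 in SBR vehicle and from 5.15 to 6.21 with WUSTL0717, with no overlap between the groups. It fell by 3.60 after SBR (SE 0.23, adjusted p = 8.62e-09) and was 1.71 higher with WUSTL0717 than in SBR vehicle (SE 0.23, adjusted p = 0.00161). Mup21 fell by 3.83 after SBR (SE 0.26, adjusted p = 1.04e-08) and was 1.69 higher with WUSTL0717 (SE 0.26, adjusted p = 0.00401). Reads of the Mup genes can fit several copies of the family, so the values of single Mup genes are uncertain. Cyp7b1, an oxysterol hydroxylase, ran from 4.64 to 5.24 in sham, from 2.19 to 2.99 in SBR vehicle and from 3.22 to 4.29 with WUSTL0717. It fell by 2.39 after SBR (SE 0.16, adjusted p = 1.04e-08) and was 0.96 higher with WUSTL0717 (SE 0.16, adjusted p = 0.00679). Slco1a1, an organic anion transporter, fell by 3.71 after SBR (SE 0.28, adjusted p = 1.93e-08), and its difference of 0.88 with WUSTL0717 was not called (adjusted p = 0.0836). In all, 10 of the 17 were higher with WUSTL0717 than in SBR vehicle, against 1.44% of all genes, and none was lower, with a median of 0.88 beside 0.02 for all genes. That count was 8 to 11 when 1 library was left out and 0 with an unmoderated two-sample comparison, in which 14 of the 17 had an unadjusted p under 0.05. Against sham, 10 of the 17 were lower with WUSTL0717, against 0.906% of all genes.

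Of 20 female-biased genes listed, 12 were in the table, and 9 rose after SBR and none fell, against 37.4% of all genes called higher, with a median of 0.98 beside 0.25 for all genes. Cyp2a4, a steroid hydroxylase, ran from 1.83 to 2.74 in sham, from 3.94 to 5.24 in SBR vehicle and from 3.07 to 4.79 with WUSTL0717, and it rose by 2.15 after SBR (SE 0.26, adjusted p = 3.27e-06). Cyp3a16 rose by 1.28 (SE 0.13, adjusted p = 4.28e-07) and Cyp3a44, its close copy, by 1.23 (SE 0.15, adjusted p = 3.97e-06), and reads of such copies can be split uncertainly. Prom1, which also marks bile duct cells, rose by 1.55 (SE 0.19, adjusted p = 4.00e-06). With WUSTL0717 against SBR vehicle none of the 12 was called by limma, against 4.10% of all genes. Of the 12, 4 had an unadjusted limma p under 0.05, as had 2738 of all 15901 genes, and the median was -0.11.

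**Figure D4:**
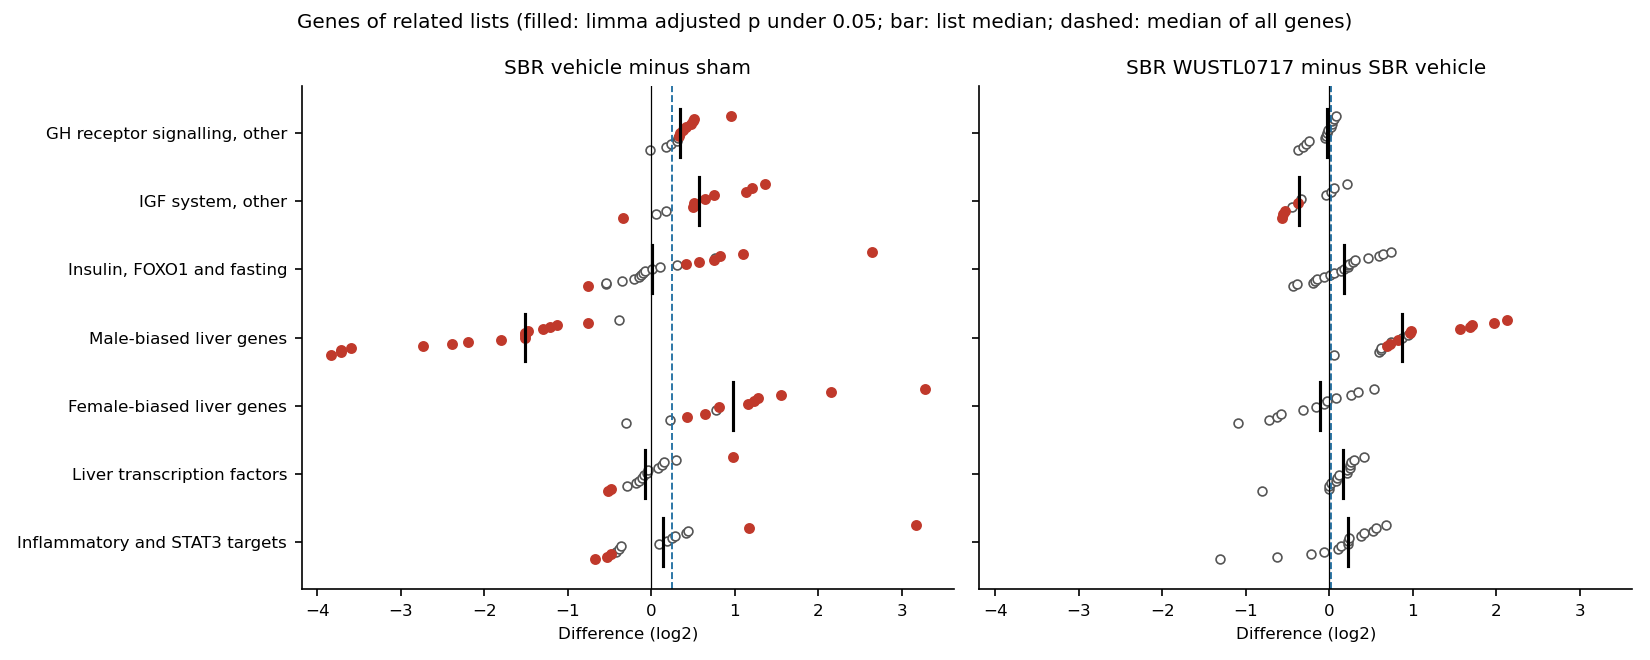
Differences on the log2 scale (horizontal axes) for the genes of 7 related lists, with 1 point per gene, filled where the limma adjusted p was under 0.05, a bar at each list's median and a dashed line at the median of all genes. The male-biased genes lie at negative values in SBR vehicle minus sham (16 of 17 called) and at positive values in WUSTL0717 minus SBR vehicle (10 of 17 called).

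Among 19 genes of insulin, FOXO1 and fasting responses, 6 rose and 1 fell after SBR, a share near the 37.4% of all genes called higher and the 4.47% called lower, with a median of 0.01 beside 0.25 for all genes. Fgf21, a hepatic hormone of starvation that is known to blunt growth hormone action, ran from 1.01 to 1.76 in sham and from 2.95 to 4.94 in SBR vehicle, and it rose by 2.64 (SE 0.27, adjusted p = 5.12e-07). With WUSTL0717 it ran from 3.00 to 4.53. Trib3 and Atf4, genes of the integrated stress response, rose by 1.10 (SE 0.24, adjusted p = 0.00116) and 0.57 (SE 0.14, adjusted p = 0.00376), and Sik1, a kinase gene induced by cAMP, by 0.76 (SE 0.16, adjusted p = 0.00100). The 1 that fell was Pck1, the gluconeogenic enzyme gene, by 0.76 (SE 0.22, adjusted p = 0.0111), and it was named after its value was seen. With WUSTL0717 against SBR vehicle limma called none of the 19, against 4.10% of all genes. An unadjusted limma p under 0.05 was found for 6 of the 19 and for 2738 of all 15901 genes.

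Of 14 liver transcription factor genes, 1 rose and 2 fell after SBR, against 37.4% of all genes called higher and 4.47% lower. Onecut1, a homeobox factor of hepatocytes and bile duct cells, rose by 0.98 (SE 0.32, adjusted p = 0.0182), while Cebpa fell by 0.48 (SE 0.13, adjusted p = 0.00733) and Nr1i3 by 0.52 (SE 0.19, adjusted p = 0.0337). Of 14 inflammatory and STAT3 target genes, 2 rose and 3 fell, against the same shares. Lcn2, an acute phase gene, rose by 3.17 (SE 0.40, adjusted p = 4.83e-06) and Tnf by 1.17 (SE 0.19, adjusted p = 9.77e-05). Il6ra fell by 0.68 (SE 0.18, adjusted p = 0.00637), Fgg by 0.53 (SE 0.18, adjusted p = 0.0256) and Fga, which was named after its value was seen, by 0.48 (SE 0.18, adjusted p = 0.0392). Of 13 fits that left out 1 library, 6 called Fga, with the highest adjusted p, 0.112, without sham library 3, and 8 called Nr1i3, with the highest, 0.114, without sham library 4. Fgg was called in 12 of 13, and not without sham library 3 (adjusted p = 0.0759), and Onecut1 in 12 of 13, and not without sham library 2 (adjusted p = 0.0605). With only the 2 groups in the fit the adjusted p was 0.0693 for Fga and 0.0509 for Fgg. Relative to the hepatocyte marker mean the differences of Cebpa, Nr1i3, Fgg, Fga and Igfbp4 turned to positive values and none was called. With WUSTL0717 against SBR vehicle limma called none of these genes, against 4.10% of all genes. An unadjusted limma p under 0.05 was found for 6 of the 14 transcription factor genes, 3 of the 14 inflammatory genes and 2738 of all 15901 genes.

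Markers of other liver cells moved in the same comparisons, in which 37.4% of all genes were called higher and 4.47% lower after SBR, and 1.44% higher and 2.66% lower with WUSTL0717 against SBR vehicle. In bulk tissue, fewer cells of a type and less RNA per cell cannot be told apart. The sums below are of batch-corrected values, turned back from the log scale with an added constant of 1 assumed. They are therefore not measured abundances. Hepatocyte markers, the defining genes of the labelled tissue, summed to between 16990 and 22152 TPM in sham, between 11025 and 21795 in SBR vehicle and between 18862 and 27083 with WUSTL0717, and 4 of 10 fell after SBR and none rose. Their differences after SBR were uneven, from -1.64 to -0.01 with a median of -0.38, so their mean does not weigh hepatocyte content alone. With WUSTL0717 against SBR vehicle 1 of 10 rose, and 5 had an unadjusted limma p under 0.05, as had 2738 of all 15901 genes. The differences of the 10 ran from 0.15 to 0.65 with a median of 0.35, beside 0.55 for Ghr. Stellate and fibroblast markers summed to between 148 and 230 TPM in sham, between 435 and 751 in SBR vehicle and between 278 and 521 with WUSTL0717. After SBR 9 of 10 rose, and with WUSTL0717 5 of 10 fell against SBR vehicle. Cholangiocyte markers summed to between 66.3 and 169 TPM in sham, between 374 and 765 in SBR vehicle and between 212 and 499 with WUSTL0717, with 7 of 7 higher after SBR and 5 of 7 lower with WUSTL0717. Of 9 Kupffer cell and macrophage markers 2 rose and 1 fell after SBR and 1 rose with WUSTL0717, of 8 endothelial markers 1 rose after SBR, and of 6 lymphocyte and neutrophil markers 3 rose. No marker was at or under 0 in every library of a group. The part of these cells in the differences of the 10 genes and of the IGF system was not tested. Relative to the mean of the 10 hepatocyte markers, 8 of the 10 genes were called after SBR, against 90.8% of all genes. The difference lay lower for 2 of them, against 1.11% of all genes called lower, and higher for 6, against 89.7% called higher, and the median of all genes was 0.78. The values were Ghr at -0.41, Igfals at -0.39, Stat5a at 1.03, Stat5b at 0.62, Socs2 at 1.80, Cish at 1.45, Igfbp1 at 2.27 and Igfbp2 at 0.95.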

How the data were processed

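RNA of 40 libraries was sequenced, 18 of them liver, after removal of ribosomal RNA. The authors aligned reads with STAR, counted unambiguous reads with featureCounts, scaled counts with edgeR (TMM) and to TPM, took log2, applied ComBat with intestine and liver as the batches, and deposited 1 table of log2 TPM for 15958 genes. The constant added before the logarithm is not given in the sources used here. ComBat can change the spread of a gene, and 2752 values lie below 0. The table holds no read totals, and depth and the precision it gives are therefore unknown.

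The 10 genes were looked up by symbol, and the lists were short lists of known genes. These members and lists were chosen with earlier results of these data known. The 3 liver groups were fitted together with limma 3.58.1 in R 4.3.3 (variance trend) on the 15901 genes whose log2 TPM averaged at least 1, with Benjamini-Hochberg adjustment, and genes were called at an adjusted p under 0.05. The fit was tested on simulated data. Named genes were the 10, and from each list up to 4 called genes with the smallest p. One gene that this rule names is not reported here. For 6 of the 10, the 3 genes with the highest correlation over liver libraries were also named. Marker lists are given by counts and sums. Promoters came from RefSeq (GRCm38.p6) and positions from GENCODE M21 (GRCm38). Figures and pairs used Python 3.11.15, pandas 2.3.3, numpy 2.4.6 and matplotlib 3.10.9. The alternatives were to drop the filter or set it at 3, to use a pseudocount of 5 or of 0.1, median centring, quantile normalization, a fit of the compared groups alone, an unmoderated comparison, library weights, a replicate block, and leaving out each library. A fit without SBR vehicle libraries 2 and 3, and one relative to 10 hepatocyte markers, were added after the data were seen.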

Additional observations from a re-analysis of the deposited data

Results flagged for a closer look

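In 30 sets of values, the 10 genes in each of 3 liver groups, 2 libraries lay far from the rest of their group by Dixon's test at the 95% level, which chance gives in about 1 of 20 sets. For Ghr, sham library 2 was at 5.03, while the other sham libraries lay between 5.34 and 5.44 on the log2 TPM scale. Its value was still above all 8 SBR vehicle libraries. For Igfbp1, sham library 4 was at 4.35, while the other sham libraries lay between 2.95 and 3.33. Its value lay within the range of both SBR groups. Why these libraries differ was not tested.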

How the results depend on the processing

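Of the 10 genes, Ghr, Igfals, Socs2 and Igfbp1 were called between SBR vehicle and sham under every alternative in which they were tested. Depth is unknown, so low values such as those of Cish are less certain. For each change named here, the cause was not tested, except that a filter at 3 leaves fewer genes to test.

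Between SBR vehicle and sham, the number of genes called, 6663, was 4180 with the filter at 3, 10462 with library weights, 10100 without SBR vehicle libraries 2 and 3, and 14445 relative to the hepatocyte markers. Between 5 and 8 of the 10 genes were called when 1 library was left out, with 5 without sham library 3. Igf1 turned to 0.21 relative to the hepatocyte markers, and Stat5b to -0.22 with median centring and -0.16 with quantile normalization. Relative to the hepatocyte markers Cebpa came to 0.0586, Nr1i3 to 0.0210, Fgg to 0.00862, Igfbp4 to 0.20 and Fga to 0.0567.

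Between WUSTL0717 and SBR vehicle, the number of genes called, 652, was 334 with the filter at 3, 3133 with median centring, 2635 with quantile normalization, 134 with only the 2 groups compared, 2819 with library weights, 1239 without SBR vehicle libraries 2 and 3, and 10064 relative to the hepatocyte markers. It was 0 with the unmoderated comparison, where 2223 genes had an unadjusted p under 0.05. It ran from 93 without WUSTL0717 library 3 to 1075 without WUSTL0717 library 4. Of calls, 35.1% were higher, against 58.4% with median centring, 48.8% with quantile normalization and 0.556% relative to the hepatocyte markers. Of the 10 genes, 1 was called with the filter at 3, where Socs2 was not tested, and between 0 and 2 when 1 library was left out, with 0 without WUSTL0717 library 2. With only the 2 groups compared, limma called 0 of the 10, and 4 had an unadjusted p under 0.05. The unmoderated comparison called 0, and 3 had an unadjusted p under 0.05. Relative to the hepatocyte markers Igf1 turned to -0.16, Igfals to -0.21, Stat5a to -0.30, Stat5b to -0.18 and Igfbp2 to -0.16. Igfals came to -0.0634 with library weights, and Stat5a to -0.00701 without SBR vehicle libraries 2 and 3.

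Between WUSTL0717 and sham, the number of genes called, 4580, was 8387 with library weights, 7743 without SBR vehicle libraries 2 and 3, 10035 relative to the hepatocyte markers, and 2456 to 4875 when 1 library was left out. Of calls, 96.9% were higher, against 54.5% with median centring and 56.1% with quantile normalization. Between 3 and 5 of the 10 genes were called when 1 library was left out. Igf1 came to 0.0482 relative to the hepatocyte markers and ran from -0.18 to 0.0115 when 1 library was left out. Stat5b came to -0.00361 with median centring. Cish came to -0.0164 with median centring, -0.00248 with quantile normalization and -0.16 with library weights.

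Same-numbered libraries of different groups did not deviate together (15 pairs, correlations of -0.20 to 0.17, median -0.01, 2 above 0.1). No pairing by number was evident, but weak correlations cannot show that the mice were unpaired, and the labels do not say. With the replicate number as a block, 6 of the 10 genes were called between SBR vehicle and sham, beside 5587 of all 15901 genes. Between WUSTL0717 and SBR vehicle, 1 of the 10 was called with this block, beside 485 of all 15901 genes. Between WUSTL0717 and sham, 5 of the 10 were called with it. Cish (adjusted p = 0.177) and Bcl6 (adjusted p = 0.252) were no longer called after SBR, Ghr was no longer called with WUSTL0717 against SBR vehicle (adjusted p = 0.0816) or against sham (adjusted p = 0.0600), and Stat5b was called between WUSTL0717 and sham (adjusted p = 0.0279).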
